A study of Homo sapiens with 9 samples.

Results

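Cells attach to collagen and other matrix proteins through integrins and through the discoidin domain receptors DDR1 and DDR2. The genes described here are DDR1, DDR2 and 8 integrin subunit genes, ITGA1, ITGA2, ITGA3, ITGA5, ITGA6, ITGAV, ITGB1 and ITGB5. They were taken by symbol, 10 of the 60683 gene IDs in the count tables, and each of the 10 was counted in all 9 libraries. The group was picked because DDR2 was very low in clone 37, so the members' values in clone 37 against parental cells are given as a description, without a test.

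RNA was measured in HEK293T cells, a line made from human embryonic kidney that carries the SV40 large T antigen. Parental cells were compared with clone 15 and clone 37, into whose genome piggyBac transposons had put a pair of luciferase reporters, ATG-(CAG)60-Myc-NLuc with 60 CAG repeats and, with none, ATG-(CAG)0-Myc-FLuc. Each clone grew from a single sorted cell, so each reporter group is 1 clone, and per the labels clone 37 was picked for high and clone 15 for low reporter expression. No group of cells that had been sorted as single cells without reporters was analysed here, so the integration, the sorting of a single cell and the reporter level cannot be told apart. Each group had 3 libraries of total RNA depleted of ribosomal RNA. The labels do not say whether the 3 came from separate cultures, so p-values measure the spread between these libraries, which may be technical.

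DDR1 and DDR2 are receptor tyrosine kinases that bind triple-helical collagen and, unlike most kinases of their class, stay phosphorylated for hours after the ligand arrives. DDR1 is best known from epithelia, and DDR2 from fibroblasts and other mesenchymal cells that meet fibrillar collagen. An integrin is a heterodimer of an alpha and a beta subunit. ITGB1 is the common partner of ITGA1 and ITGA2 in the main collagen receptors, of ITGA3 and ITGA6 in laminin receptors and of ITGA5 in the classical fibronectin receptor, while ITGAV pairs with several beta subunits, ITGB5 among them, and binds vitronectin and other ligands that carry the RGD motif.

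Gene counts summed to 10334090 to 13902872 per library in parental cells and clone 37, and to 18654063 to 38093340 in clone 15. Clone 15 was also read at 100 bp and the other groups at 75 bp, a difference that cannot be told apart from clone 15 itself. The 8 HEK293T markers checked (kidney, neural and keratin genes) were each above 1 CPM (counts per 1000000 gene counts) in every library. Their sum differed between groups, at 1380 to 1689 CPM in parental cells, 4143 to 4305 CPM in clone 15 and 865 to 932 CPM in clone 37, with the neurofilament gene NEFM at 475 to 633, 2646 to 2810 and 135 to 139 CPM, and the part of this in the receptor values was not tested. CD3E and HBB of the 4 blood markers were at 0 throughout. The blood markers summed to at most 1.30 CPM, nearly all CD14 (0 to 0.0765 CPM in parental cells, 0.447 to 0.893 CPM in clone 15 and 0.730 to 1.30 CPM in clone 37), and the 4 endothelial markers to 0.647 to 2.84 CPM, mostly KDR (0.575 to 0.740 CPM in parental cells, 1.38 to 2.28 CPM in clone 15 and 0.548 to 0.871 CPM in clone 37). The 8 fibroblast or mesenchymal markers summed to 39.1 to 42.1 CPM in parental cells, to 59.2, 78.5 and 176 CPM in clone 15 replicates 1 to 3, and to 21.5 to 22.3 CPM in clone 37. Among them COL1A2 had no count in parental cells or clone 37 but 5.59, 12.2 and 56.8 CPM in the clone 15 libraries, and 7 of the 8 exceeded 1 CPM in clone 15 replicate 3 against 3 in each other clone 15 library. Results on clone 15 are therefore also given without replicate 3 where it matters. Parental replicate 2 also stood apart, with a chi-square per degree of freedom of 12.7 and 12.8 from the other parental libraries against 2.10 between those, and with 19.2% of read pairs outside annotated exons on the transcript strand against 26.4% and 28.8%. Clone 15 replicate 2 differed from replicates 1 and 3 by 11.1 and 9.08, against 4.87 between those. Calls that changed without either of these libraries are given beside the genes.

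DDR2 (ENSG00000162733) spans chr1:162631373-162787400 on the plus strand of GRCh38 in GENCODE 29, with 10730 bases of exon and none shared with another gene. The 250 bases before each of the 3 DDR2 starts that RefSeq lists (GRCh38.p14) are shown because this gene had the largest differences of the 10 between groups, and a window of ITGAV, which was also lower in both clones, is set beside them. CpG dinucleotides (CG, which reads the same on both strands) are in capitals. Gene-level counts do not tell which start was used.
DDR2 chr1:162630613-162630862, plus strand: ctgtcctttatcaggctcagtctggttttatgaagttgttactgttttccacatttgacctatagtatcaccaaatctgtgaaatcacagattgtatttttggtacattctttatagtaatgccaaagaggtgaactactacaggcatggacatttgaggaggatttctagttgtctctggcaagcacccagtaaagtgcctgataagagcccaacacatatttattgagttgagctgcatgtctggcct
DDR2 chr1:162631725-162631974, plus strand: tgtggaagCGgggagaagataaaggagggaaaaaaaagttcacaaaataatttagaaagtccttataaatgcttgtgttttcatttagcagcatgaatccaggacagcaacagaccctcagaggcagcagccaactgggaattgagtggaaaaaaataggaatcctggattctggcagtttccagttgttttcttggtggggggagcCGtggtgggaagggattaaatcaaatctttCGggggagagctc
DDR2 chr1:162632214-162632463, plus strand: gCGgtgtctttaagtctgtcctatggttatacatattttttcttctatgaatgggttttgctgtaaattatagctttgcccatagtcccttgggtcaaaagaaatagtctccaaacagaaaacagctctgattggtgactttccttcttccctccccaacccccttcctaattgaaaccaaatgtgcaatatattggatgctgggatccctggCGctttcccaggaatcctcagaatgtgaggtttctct
ITGAV chr2:186589806-186590055, plus strand: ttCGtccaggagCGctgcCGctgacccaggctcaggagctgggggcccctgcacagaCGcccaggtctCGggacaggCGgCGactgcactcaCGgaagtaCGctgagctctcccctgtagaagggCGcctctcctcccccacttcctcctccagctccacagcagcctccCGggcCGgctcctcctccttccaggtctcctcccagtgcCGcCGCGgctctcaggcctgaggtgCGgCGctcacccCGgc
The DDR2 windows held 0, 3 and 2 CpG, at a GC content of 40.0%, 44.4% and 42.4%. Of 35116 such windows in the RefSeq table, 6.06% had none, 29.3% had 3 or fewer and 22.9% had 2 or fewer, and the median window held 11. The printed ITGAV window held 18 CpG at 70.8% GC. The other ITGAV window listed, chr2:186599955-186600204, is not printed and held 1 CpG at 40.8% GC. Windows were listed for 9 of the 10 genes, all but ITGA3, and each of the 8 other than DDR2 had at least 1 window with 12 or more CpG. The number of windows differed between genes, and ITGA1, ITGA2 and ITGA5 had 1 each. Among the rest, the window with the fewest CpG held 2 in DDR1, 8 in ITGA6, 1 in ITGAV, 4 in ITGB1 and 9 in ITGB5. Windows with few CpG were thus not particular to DDR2. These counts describe the printed letters only, since methylation was not measured.

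DDR2 was the second most abundant RNA of the 10 per length of exon in parental cells and the least abundant in clone 37. Its level was 216, 245 and 244 CPM in the parental libraries, 124, 117 and 117 CPM in clone 15, and 7.76, 7.64 and 7.53 CPM in clone 37. The 3 groups did not overlap, and each clone 37 library lay far below every clone 15 library. Means were 235 ± 16.7 CPM (SD, n = 3) in parental cells, 119 ± 4.02 CPM in clone 15, which is 50.7% of parental, and 7.65 ± 0.116 CPM in clone 37, which is 3.25% of parental. Clone 37 was thus 30.7-fold below parental cells and 15.6-fold below clone 15, and the fitted log2 fold changes were -4.97 and -3.96. DDR2 was not lost altogether in clone 37, where 85, 79 and 93 counts remained, against 2330 to 3405 in parental libraries and 2179 to 4714 in clone 15. In bulk RNA, fewer cells with DDR2 RNA and less of it per cell cannot be told apart.

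The change of DDR2 in clone 15 was tested because the genes were chosen on clone 37. The parental libraries are the baseline of both comparisons, so this test is not independent of the choice. DDR2 fell by 1.01 on the log2 scale (SE 0.08), with an adjusted p of 2.85e-10 in edgeR's quasi-likelihood test with Benjamini-Hochberg adjustment over 17703 genes, and the approximate 95% interval ran from -1.17 to -0.85. All 3 clone 15 libraries were below all 3 parental libraries. Without clone 15 replicate 3, the library with the most fibroblast-marker RNA, the change was -0.98 (adjusted p = 1.72e-08), and replicate 3 itself was at 117 CPM like replicate 2. Without parental replicate 2 it was -0.96 (adjusted p = 3.76e-10), and without clone 15 replicate 2 it was -0.97 (adjusted p = 3.1e-07).

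**Figure D1:**
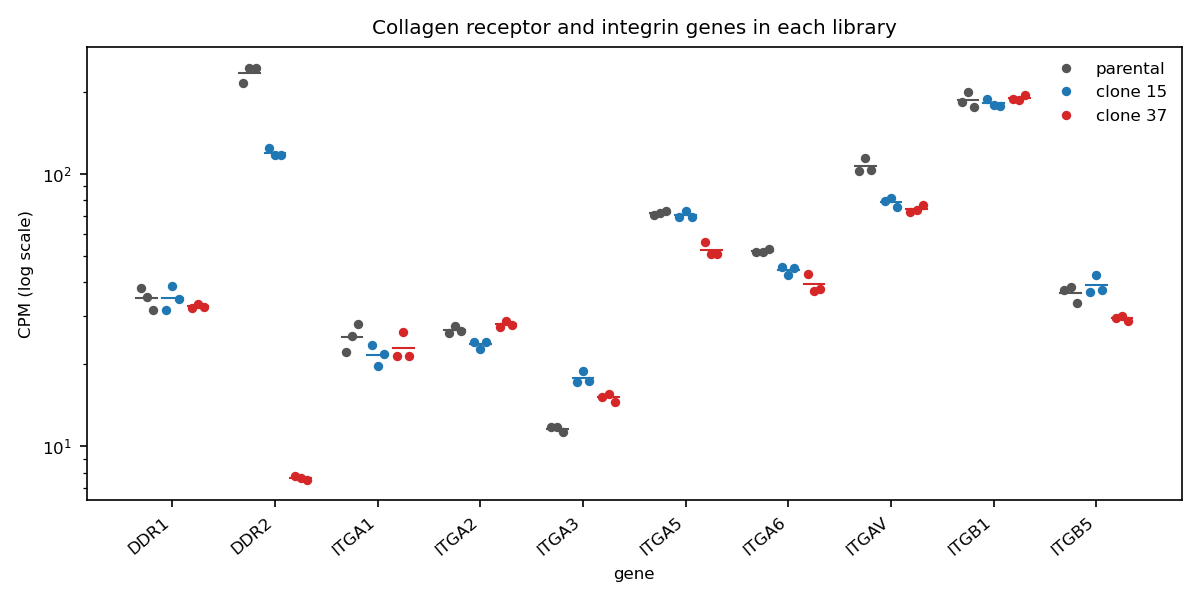
CPM of the 10 receptor genes on a log axis, with a point per library and a line at the mean of each group's 3 libraries (grey, parental; blue, clone 15; red, clone 37). DDR2 drops from 235 to 119 and 7.65 CPM, while the group means of the other 9 genes stay between 69.6% and 154% of parental.

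DDR1, the other collagen-activated kinase, passed no test. It was at 38.0, 35.4 and 31.7 CPM in parental cells, 31.6, 38.7 and 34.6 CPM in clone 15 and 32.1, 33.2 and 32.5 CPM in clone 37, and the groups overlapped. The change in clone 15 was -0.04 on the log2 scale, with an interval of -0.23 to 0.16 (adjusted p = 0.789), and clone 37 differed from clone 15 by -0.09 (-0.25 to 0.07, adjusted p = 0.336). Per kilobase of exon, the ratio of DDR2 to DDR1 RNA was 5.75 ± 0.873 in parental cells, 2.92 ± 0.384 in clone 15 and 0.199 ± 0.005 in clone 37 (SD, n = 3). DDR1 RNA thus exceeded DDR2 RNA in clone 37 alone among the 3 groups, in each of its 3 libraries.

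The collagen-binding integrin subunits ITGA1 and ITGA2 missed the threshold in clone 15. ITGA1, which favours basement membrane collagen, was at 22.1, 25.3 and 28.2 CPM in parental cells, 23.5, 19.7 and 21.9 CPM in clone 15 and 21.4, 26.2 and 21.4 CPM in clone 37, with overlap between all groups. Its change in clone 15 was -0.25 (interval -0.46 to -0.03), which missed the threshold with an adjusted p of 0.0644 but passed it without parental replicate 1 (-0.36, adjusted p = 0.0199), in unstranded counts and in a fit of the 9 libraries together. ITGA1 shares 5.63% of its exon bases with PELO and AC022133.1 on the same strand, and reads there are not counted for any of them.

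ITGA2, which favours fibrillar collagen, had 26.0, 27.7 and 26.4 CPM in parental cells, 24.2, 22.7 and 24.0 CPM in clone 15 and 27.3, 28.8 and 27.9 CPM in clone 37. Clone 15 lay below both other groups, by 0.21 on the log2 scale against parental cells (log2 fold change -0.21, adjusted p = 0.0821, and 0.0475 in a fit of the 9 libraries together and 0.0424 in unstranded counts). Between the clones ITGA2 was higher in clone 37 by 0.25 (SE 0.08, adjusted p = 0.0113). That call was lost when all libraries were thinned to the smallest total (0.19, adjusted p = 0.106) and without clone 37 replicate 3 (0.24, adjusted p = 0.0534).

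Of the RNA of the 4 main collagen receptor genes per kilobase, DDR2 made up 71.8 ± 1.70% in parental cells, 58.1 ± 1.36% in clone 15 and 7.86 ± 0.301% in clone 37 (SD, n = 3). The 4 collagen-binding alpha subunits ITGA1, ITGA2, ITGA10 and ITGA11 together stayed at 5.09 ± 0.271, 4.70 ± 0.268 and 5.01 ± 0.320 CPM per kb. The sums of the 3 groups overlapped.

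ITGA3 was the member that rose. This laminin receptor subunit was at 11.7, 11.7 and 11.3 CPM in parental cells, 17.2, 18.9 and 17.3 CPM in clone 15 and 15.2, 15.6 and 14.6 CPM in clone 37. Both clones lay above parental cells without overlap, at 154% and 130% of the parental mean. In clone 15 the rise was 0.59 on the log2 scale (SE 0.12, adjusted p = 0.000197), and in clone 37 the fitted value was 0.36. Clone 37 was lower than clone 15 by a log2 fold change of -0.23 (adjusted p = 0.0456), a call that held in 4 of 14 alternative settings and missed the threshold in the other 10, among them DESeq2 (adjusted p = 0.0943), thinning (-0.11, adjusted p = 0.451) and the fits without clone 15 replicate 2 (0.0635) or without clone 37 replicate 1, 2 or 3 (0.118, 0.0896 and 0.134).

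ITGA6, the other laminin-binding alpha subunit, went the opposite way. Its values were 51.7, 51.6 and 52.9 CPM in parental cells, 45.4, 42.4 and 45.1 CPM in clone 15 and 43.0, 37.1 and 37.9 CPM in clone 37. Both clones lay below parental cells, and the clones overlapped each other. ITGA6 fell in clone 15 by 0.26 (SE 0.09, adjusted p = 0.0121), the fitted change in clone 37 was -0.43, and the difference between the clones, -0.17, missed the threshold (interval -0.32 to -0.02, adjusted p = 0.0567). That difference was called without clone 15 replicate 2 (-0.23, adjusted p = 0.00374) and without clone 37 replicate 1 (-0.23, adjusted p = 0.0323).

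ITGAV, the alpha subunit of vitronectin receptors, was lower in both clones to much the same extent. It was at 102, 115 and 103 CPM in parental cells, 79.6, 81.1 and 75.6 CPM in clone 15 and 72.5, 73.4 and 76.7 CPM in clone 37. No library of either clone reached the parental range. In clone 15 ITGAV fell by 0.47 (SE 0.08, adjusted p = 3.96e-05), the fitted change in clone 37 was -0.55, and the clones differed by -0.08 (interval -0.20 to 0.04, adjusted p = 0.254).

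ITGA5, the alpha subunit of the fibronectin receptor, was lower in clone 37 than in clone 15. Parental libraries held 70.4, 71.8 and 72.9 CPM, clone 15 libraries 69.4, 72.7 and 69.5 CPM, and clone 37 libraries 56.0, 50.7 and 50.6 CPM. Clone 15 overlapped parental cells (log2 fold change -0.05, interval -0.21 to 0.10, adjusted p = 0.587), and clone 37 lay below both. The difference between the clones was -0.42 (SE 0.07, adjusted p = 2.81e-06), and the fitted change of clone 37 from parental cells was -0.48.

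The pair of beta subunits differed from each other. ITGB1, the most abundant RNA of the 10 in every group, was at 183, 199 and 176 CPM in parental cells, 188, 179 and 177 CPM in clone 15 and 188, 186 and 195 CPM in clone 37. All groups overlapped, and the log2 fold changes were -0.07 in clone 15 against parental cells (interval -0.23 to 0.09, adjusted p = 0.513) and 0.07 in clone 37 against clone 15 (-0.04 to 0.17, adjusted p = 0.309). ITGB5, a partner of ITGAV, was at 37.5, 38.5 and 33.6 CPM in parental cells, 36.9, 42.6 and 37.3 CPM in clone 15 and 29.6, 30.1 and 28.9 CPM in clone 37. Clone 37 lay below both other groups for ITGB5, by a log2 fold change of -0.39 from clone 15 (SE 0.08, adjusted p = 8.83e-05) and a fitted -0.33 from parental cells, while clone 15 differed from parental cells by 0.06 (-0.13 to 0.25, adjusted p = 0.632).

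**Figure D2:**
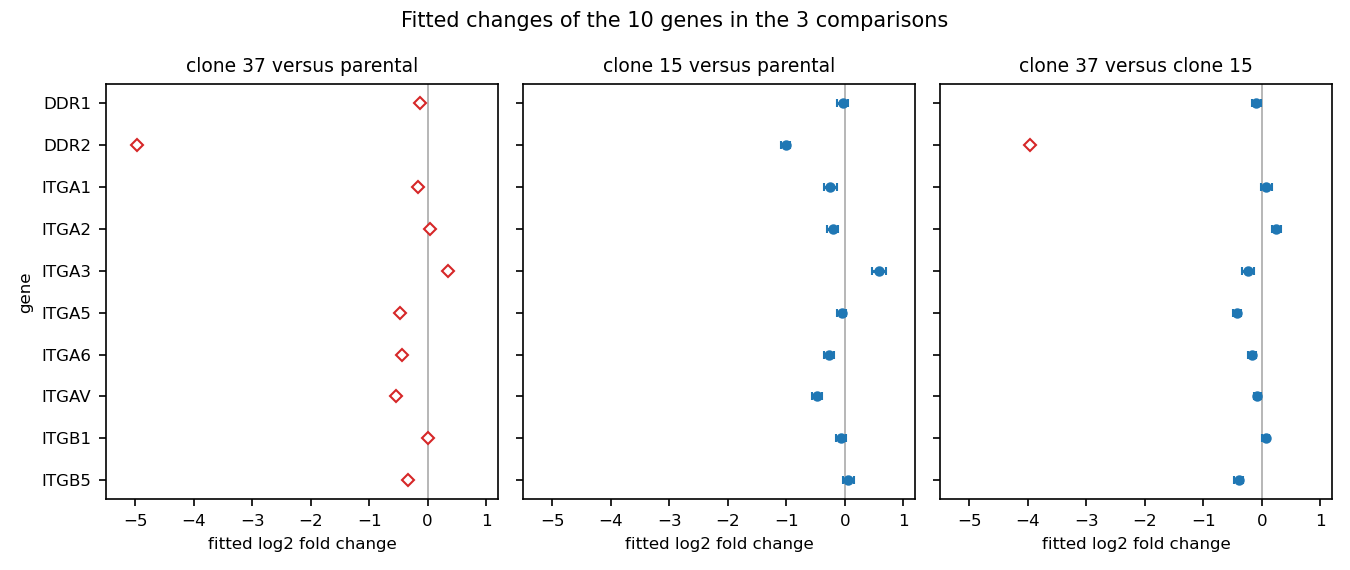
Fitted log2 fold change of each of the 10 genes in 3 comparisons, with bars of 1 standard error on the tested values (filled circles); open diamonds are values given without a test because the genes were chosen on them. DDR2 stands at -4.97, -1.01 and -3.96, and no other gene passes 0.59 in size.

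In clone 15 against parental cells, 4 of the 10 genes were called at an adjusted p under 0.05 (ITGA3 higher; DDR2, ITGA6 and ITGAV lower), where 51.4% of all genes tested were called. Between the clones, 4 of the 9 tested genes were called (ITGA2 higher; ITGA3, ITGA5 and ITGB5 lower), where 57.7% of all genes were called. Of all genes, the share that rose was 25.1% and the share that fell 26.2% in clone 15, and 28.7% and 29% between the clones. In clone 37 against parental cells 6 of the 10 genes passed the same threshold, 1 higher and 5 lower, beside 54% of all genes (26.7% higher and 27.3% lower), a count from which nothing is read. In clone 15 and between the clones, the shares of receptor genes called, 4 of 10 and 4 of 9, were somewhat below those of all genes. With so few genes, nothing further is read from these shares. DDR2 was the 1 member with a fitted change of at least 2-fold in clone 15, where 10.1% of all genes were called with such a change. The median log2 fold change of the 10 was -0.14 in clone 15, -0.13 between the clones and -0.25 in clone 37, and that of all genes tested was 0.02, -0.00 and 0.02.

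Levels can be compared between genes only per length, here as CPM per kilobase of exon. In parental cells the order was ITGB1 (30.9), DDR2 (21.9), ITGAV (13.0), ITGA5 (9.46), ITGA6 (7.97), ITGB5 (5.66), DDR1 (3.84), ITGA2 (3.37), ITGA1 (1.36) and ITGA3 (1.18). DDR1 overlapped ITGA2, and ITGA1 overlapped ITGA3, over the 3 libraries. In clone 15 DDR2 was still second at 11.1, ahead of ITGAV at 9.59, which overlapped ITGA5 at 9.31, and ITGA3 (1.82) had passed ITGA1 (1.17). In clone 37 DDR2 was last at 0.712, below ITGA1 at 1.24 and ITGA3 at 1.54, and the order from ITGB1 (31.5) through ITGAV (9.04), ITGA5 (6.92), ITGA6 (6.02) and ITGB5 (4.58) was that of parental cells without DDR2.

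Across all 26 integrin genes, alpha subunit RNA was lower in every library of the clones, while the beta subunit sums overlapped. The 18 alpha genes summed to 54.8, 55.1 and 55.3 CPM per kb in parental libraries, 46.5, 46.7 and 46.8 CPM per kb in clone 15 and 41.2, 41.0 and 40.3 CPM per kb in clone 37, with no overlap between groups. The 8 beta genes summed to 37.5 ± 2.37, 37.3 ± 0.747 and 36.9 ± 0.718 CPM per kb. ITGB1 alone made up 82.4%, 80.9% and 85.4% of beta RNA, and the 6 alpha members described here 66.0%, 67.9% and 69.3% of alpha RNA.

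**Figure D3:**
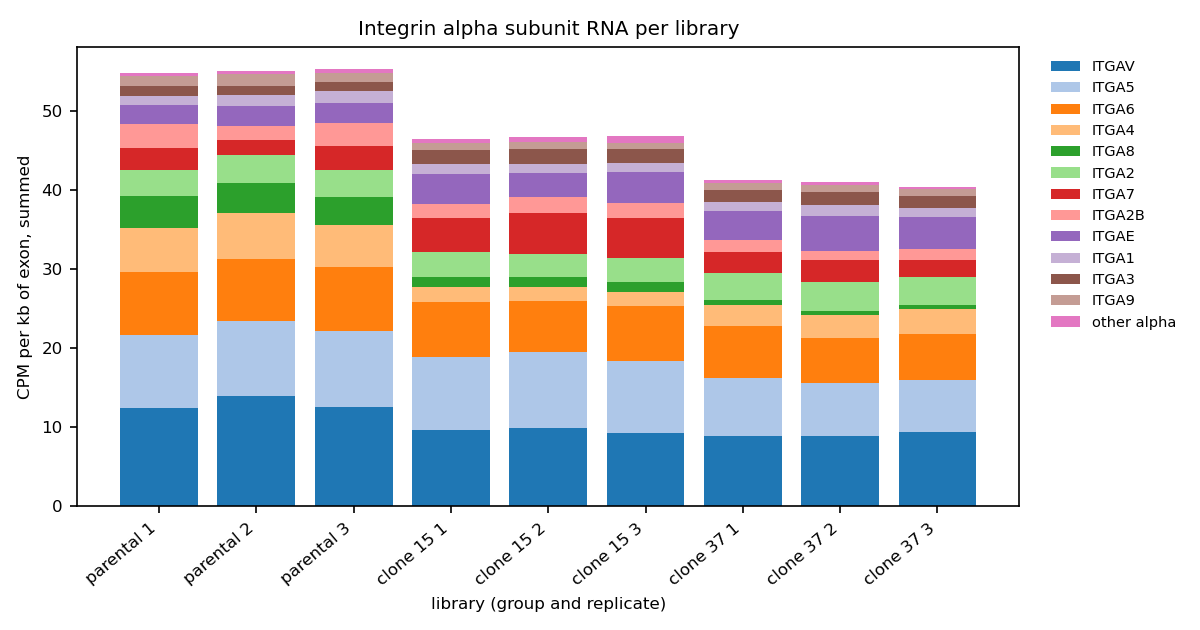
Stacked CPM per kb of exon of the integrin alpha subunit genes in each of the 9 libraries, with each colour a gene. The totals step down from 55.1 in parental cells to 46.6 in clone 15 and 40.8 in clone 37 (means of 3), and the ITGA4 and ITGA8 bands shrink in both clones.

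Integrin genes outside the 10 moved both ways. Of 18 other subunit genes, 12 were tested in clone 15, where 4 were higher and 5 lower, and 10 were tested in clone 37 against parental cells, where 1 was higher and 6 lower. Over all genes 51.4% and 54% were called, with 25.1% to 27.3% in each direction. The medians were 0.15 and -0.72 on the log2 scale. The lists' clone 15 and clone 37 values share the parental libraries and are set side by side only.

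ITGA8, a partner of ITGB1 in a receptor needed for kidney development, was at 30.1, 28.6 and 26.9 CPM in parental cells, 9.53, 9.54 and 9.49 CPM in clone 15 and 4.11, 3.87 and 3.48 CPM in clone 37. Like DDR2 it stepped down from parental cells to clone 15 and to clone 37 without overlap. It fell by 1.61 in clone 15 (adjusted p = 1.27e-11) and by 2.93 in clone 37 (adjusted p = 2.99e-12), and the clones differed by -1.32 (adjusted p = 1.7e-08). ITGA4, a fibronectin and VCAM1 receptor subunit, was at 44.1, 45.9 and 41.8 CPM in parental cells, 15.7, 13.9 and 14.0 CPM in clone 15 and 21.2, 23.1 and 24.7 CPM in clone 37. It was lowest in clone 15 (-1.62, adjusted p = 1.7e-12), fell less in clone 37 (-0.96, adjusted p = 4.33e-08), and was higher in clone 37 than in clone 15 by 0.66 (adjusted p = 1.99e-06).

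Other subunits rose. ITGAE, which pairs with ITGB7 to bind E-cadherin, rose by 0.50 in clone 15 (adjusted p = 0.000979) and by 0.68 in clone 37 (adjusted p = 1.39e-05). ITGB7 itself had at most 5 counts in any library and was not tested. ITGA7, a laminin receptor subunit of muscle, rose by 0.91 in clone 15 (adjusted p = 8.23e-06) and was at -0.03 in clone 37 (adjusted p = 0.889). ITGB3, a partner of ITGAV and ITGA2B, was low throughout, with 7, 9 and 10 counts in the parental libraries. It was at 0.647 to 0.765 CPM in parental cells, 1.58 to 2.63 CPM in clone 15 and 0.0968 to 0.405 CPM in clone 37. ITGB3 rose by 1.47 in clone 15 (adjusted p = 0.00101) and was not tested in clone 37 against parental cells.

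Among other low-level integrin genes, ITGB8, a partner of ITGAV that activates TGF-beta, fell by 1.08 in clone 15 (adjusted p = 0.000468) and by 0.74 in clone 37 (adjusted p = 0.00186). ITGA11, a fibrillar collagen receptor subunit of mesenchymal cells, was at 2.59, 2.45 and 2.60 CPM in parental cells, 2.31, 2.27 and 4.56 CPM in clone 15 and 1.00, 0.968 and 0.243 CPM in clone 37. Its fall by 1.84 in clone 37 (adjusted p = 0.000338) was not called in the unstranded counts, where it was -0.42. The highest clone 15 value is that of replicate 3, and the change in clone 15, 0.19 (adjusted p = 0.58), was -0.16 without it.

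MRC2, an endocytic receptor that takes up collagen, was the 1 gene of 5 other collagen receptors tested in both clones against parental cells. It was at 96.2, 84.5 and 81.4 CPM in parental cells, 104, 128 and 115 CPM in clone 15 and 44.5, 45.0 and 42.8 CPM in clone 37. The clones moved in opposite directions, with a rise of 0.38 in clone 15 (adjusted p = 0.00076) and a fall of 1.01 in clone 37 (adjusted p = 3.07e-09), and the difference between them was -1.39 (adjusted p = 9.56e-16).

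The genes on either side of DDR2 on chromosome 1 did not share the size of its change. The 5 nearest expressed protein-coding genes on each side, from OLFML2B to RXRG over 3.46 Mb, had a median log2 fold change of -0.61 in clone 37 against parental cells, with a range of -1.93 (RXRG) to 0.67 (UHMK1), and of -0.26 in clone 15, from -0.86 (NUF2) to 0.01. The closest neighbours were UAP1, 31.5 kb before DDR2, and HSD17B7, 3.30 kb after it. UAP1, an enzyme of amino sugar synthesis, was at 89.2 ± 6.14 CPM in parental cells and 98.6 ± 1.17 CPM in clone 37. HSD17B7, a steroid and cholesterol synthesis enzyme, was at 17.7 ± 2.50 and 18.3 ± 1.32 CPM (SD, n = 3). Neither was called in clone 37 (log2 fold changes 0.12 and 0.02, adjusted p = 0.136 and 0.870). In clone 15 UAP1 was called lower (-0.26, adjusted p = 0.0134) and HSD17B7 was not called (-0.27, adjusted p = 0.0639). Both were called higher in clone 37 than in clone 15 (0.37 and 0.29, adjusted p = 5.7e-06 and 0.0175).

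**Figure D4:**
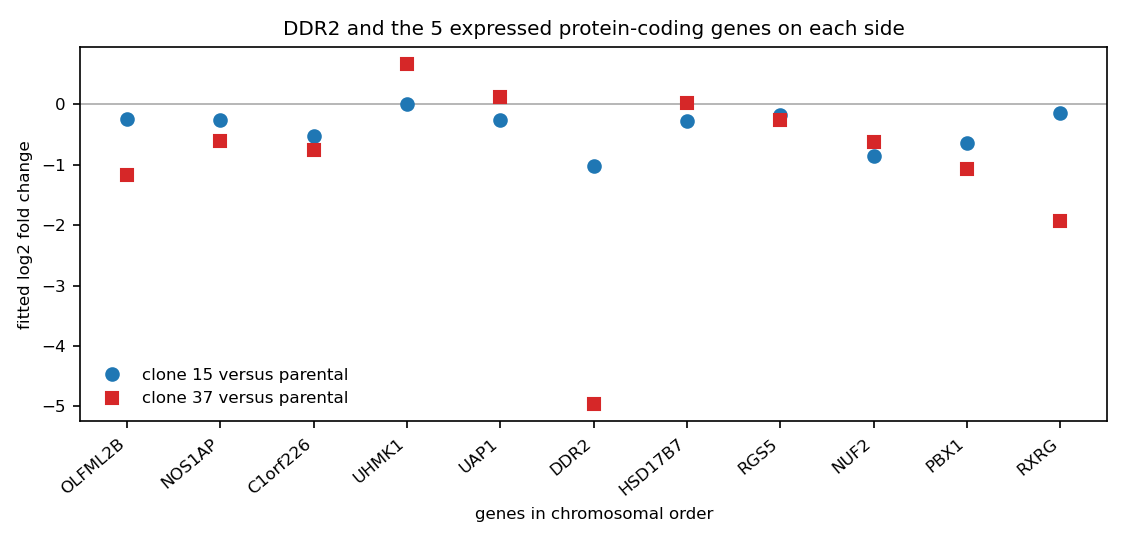
Fitted log2 fold change of DDR2 and of the 5 expressed protein-coding genes on each side, in chromosomal order and not to distance (blue circles, clone 15 against parental; red squares, clone 37 against parental). DDR2 is at -4.97 in clone 37, while its flanking genes UAP1 and HSD17B7 are at 0.12 and 0.02.

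The genes most like DDR2 over the 9 libraries were sought by the root mean square difference between centred log2(CPM + 0.5) values among 11314 protein-coding genes. The closest were ZC3HAV1L (0.378), SERPINF1 (0.552), PCDH9 (0.676), COL3A1 (0.694) and B3GALNT1 (0.707), against a median of 2.12 over all genes. ZC3HAV1L had 39.6, 40.6 and 39.9 CPM in parental cells, 19.0, 21.9 and 17.6 CPM in clone 15 and 0.365, 0.581 and 0.162 CPM in clone 37. That is the same order of groups as DDR2, with clone 15 near the middle. The 5 genes were picked on these same values, so a shared order and low clone 37 values follow from the choice. SERPINF1, which encodes a secreted serpin that acts on blood vessels and neurons, and PCDH9, a protocadherin of neural cells, were also lowest in clone 37, at 8.29 ± 0.545 CPM against 99.7 ± 3.46 CPM in parental cells for SERPINF1. B3GALNT1, a glycosyltransferase gene, was lowest in clone 37 (0 to 0.183 CPM) but higher in clone 15 (7.88 to 10.6 CPM) than in parental cells (5.25 to 6.58 CPM), by 0.58 on the log2 scale (adjusted p = 0.00361), opposite to DDR2 there. None of the other 9 receptor genes resembled DDR2, with differences of 1.89 to 2.19, and ITGA8 ranked 25 among all genes, at 1.15.

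Collagen genes, the ligands of the DDRs and of ITGA1 and ITGA2, were mostly lower in the clones. Of 13 collagen genes, 10 were tested in clone 37 against parental cells and all of those 10 fell, with a median of -0.84, where 27.3% of all genes tested fell. In clone 15, 12 were tested, of which 7 fell and 1 rose, with a median of -0.66, where 26.2% of all genes fell and 25.1% rose. COL3A1 and COL11A1 in clone 37, and COL11A1 in clone 15, needed their parental counts to pass the low-count filter. A fall was the only call open to them there, so they add no support to these counts. COL3A1, a fibrillar collagen and DDR2 ligand, was at 14.5, 13.5 and 12.4 CPM in parental cells, 2.36, 3.05 and 9.49 CPM in clone 15 and 0, 0.387 and 0.243 CPM in clone 37. It fell by 5.97 in clone 37 (SE 0.31, adjusted p = 6.46e-11), a value that depends on how a library with 0 counts is handled. In clone 15 the change, -1.55, missed the threshold (adjusted p = 0.103), and without replicate 3, whose level was 9.49 CPM, it was -2.34 (adjusted p = 1.72e-09). DESeq2 (adjusted p = 0.0403) and a model of the 9 libraries together (adjusted p = 0.0453) called it with all libraries.

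COL5A1, COL5A2 and COL11A1, fibrillar collagens, fell in both clones. COL5A2 was at 26.6 to 28.5 CPM in parental cells, 10.0 to 11.5 CPM in clone 15 and 10.2 to 11.1 CPM in clone 37, a fall by 1.39 and by 1.40 (adjusted p = 2.12e-10 and 2.35e-09). COL5A1 fell by 0.85 in clone 15 and by 1.08 in clone 37, and COL11A1, at 2.53 to 3.70 CPM in parental cells, fell by 4.77 and by 1.83. The clone 15 libraries held 4, 0 and 5 counts of COL11A1, so the size of its fall there depends on how 0 counts are handled, and it was -5.52 without replicate 3. 

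COL2A1 was the 1 collagen gene that rose in clone 15 with all libraries in the fit. It encodes the fibrillar collagen of cartilage and was at 63.9 to 66.6 CPM in parental cells, 81.4 to 88.1 CPM in clone 15 and 40.6 to 45.7 CPM in clone 37. It rose by 0.34 in clone 15 (adjusted p = 0.00091) and fell by 0.62 in clone 37 (adjusted p = 6.14e-07). COL1A1 was at 32.9 to 35.5 CPM in parental cells, at 48.3, 61.4 and 108 CPM in clone 15 and at 18.4 to 20.7 CPM in clone 37. Its clone 15 change of 1.04 missed the threshold (adjusted p = 0.0799) and was 0.66 (adjusted p = 2.57e-05) without replicate 3, and it fell by 0.85 in clone 37 (adjusted p = 1.89e-07). COL1A2 had no count in parental cells, and its clone 15 mean was at least 103-fold higher than the floor of 3 counts per library, or at least 36.9-fold without replicate 3. It was not called with all libraries (adjusted p = 0.171) and was called without replicate 3 (adjusted p = 0.000934). COL6A3 was not called in clone 15, where its change was 2.10 (adjusted p = 0.244), or 0.74 (adjusted p = 0.179) without replicate 3.

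Ligands other than collagen were also mostly lower. Of 16 such genes 13 were tested, and 11 fell and 2 rose in clone 37, against 9 that fell and 1 that rose in clone 15, with medians of -0.50 and -0.56. Of all genes tested, 27.3% fell and 26.7% rose in clone 37, and 26.2% and 25.1% in clone 15. FN1, which encodes fibronectin, the ligand of the receptor made by ITGA5 and ITGB1, was at 214, 212 and 197 CPM in parental cells, 112, 114 and 205 CPM in clone 15 and 52.0, 46.4 and 45.4 CPM in clone 37. It fell by 2.14 in clone 37 (adjusted p = 9.76e-14), and in clone 15 replicate 3 lay within the parental range while the other clone 15 libraries lay well below it. The clone 15 change was -0.56 (adjusted p = 0.186) with that library and -0.89 (adjusted p = 3.27e-08) without it.

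LAMA2 and LAMA4, which encode laminin alpha chains, fell in both clones. LAMA4 was at 64.2 to 65.7 CPM in parental cells, 24.8 to 30.2 CPM in clone 15 and 18.7 to 19.8 CPM in clone 37, a fall by 1.27 and by 1.78 (adjusted p = 2.87e-11 and 2.99e-12). LAMA2 fell by 1.40 and by 1.84. Tenascin-C (TNC), an adhesion-modulating matrix protein, rose by 1.28 in clone 15 (adjusted p = 3.28e-09) and fell by 0.50 in clone 37 (adjusted p = 0.00481), at 25.6 to 29.2 CPM and 7.45 to 8.23 CPM against 9.72 to 12.1 CPM in parental cells.

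Inside the cell, genes that activate integrins or link them to actin moved in both directions. Of 25 such genes, 8 rose and 10 fell in clone 15, and of 24 tested in clone 37, 5 rose and 12 fell, with medians of -0.06 and -0.18. The shares of all genes that rose and fell were 25.1% and 26.2% in clone 15 and 26.7% and 27.3% in clone 37. FERMT2, a kindlin that binds beta subunit tails, was at 106, 119 and 119 CPM in parental cells, 88.1, 79.3 and 88.6 CPM in clone 15 and 57.5, 54.4 and 57.2 CPM in clone 37, a fall by 0.46 and by 1.05 (adjusted p = 5.83e-05 and 5.57e-10). TNS1, a tensin of mature adhesions, fell by 0.76 and by 1.29, and LIMS1, which holds ILK at adhesions, by 1.01 and by 0.70. TLN2, a talin, fell by 0.78 in clone 15 and by 0.29 in clone 37. LIMS2 fell by 1.93 in clone 37, and its call in clone 15 (-0.62, adjusted p = 0.0398) was lost without clone 15 replicate 1, 2 or 3 (adjusted p = 0.0892, 0.0596 and 0.150) and without parental replicate 1 (-0.40, adjusted p = 0.273).

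Among 15 genes linked to DDR2 signalling or to the remodelling of collagen, 13 were tested. In clone 37, 9 fell and 3 rose with a median of -0.51, and in clone 15, 5 fell and 2 rose with a median of -0.15. The 53.8% called in clone 15 is near the 51.4% of all genes, and in clone 37 27.3% of all genes fell and 26.7% rose. LOX, the enzyme that cross-links collagen and elastin, was at 62.8, 61.0 and 47.1 CPM in parental cells, 21.9, 21.3 and 19.5 CPM in clone 15 and 22.6, 20.5 and 21.7 CPM in clone 37. It fell by 1.47 and by 1.42 (adjusted p = 9.73e-11 and 6.17e-08), to levels that overlapped between the clones. MMP2, a gelatinase, fell by 1.00 and by 1.06, and TIMP3, an inhibitor of metalloproteinases, by 0.61 and by 0.92. SNAI2, a transcription factor of the epithelial to mesenchymal transition, fell more in clone 15 (-1.49) than in clone 37 (-0.61), and the clones differed by 0.87 (adjusted p = 3.41e-09).

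**Figure D5:**
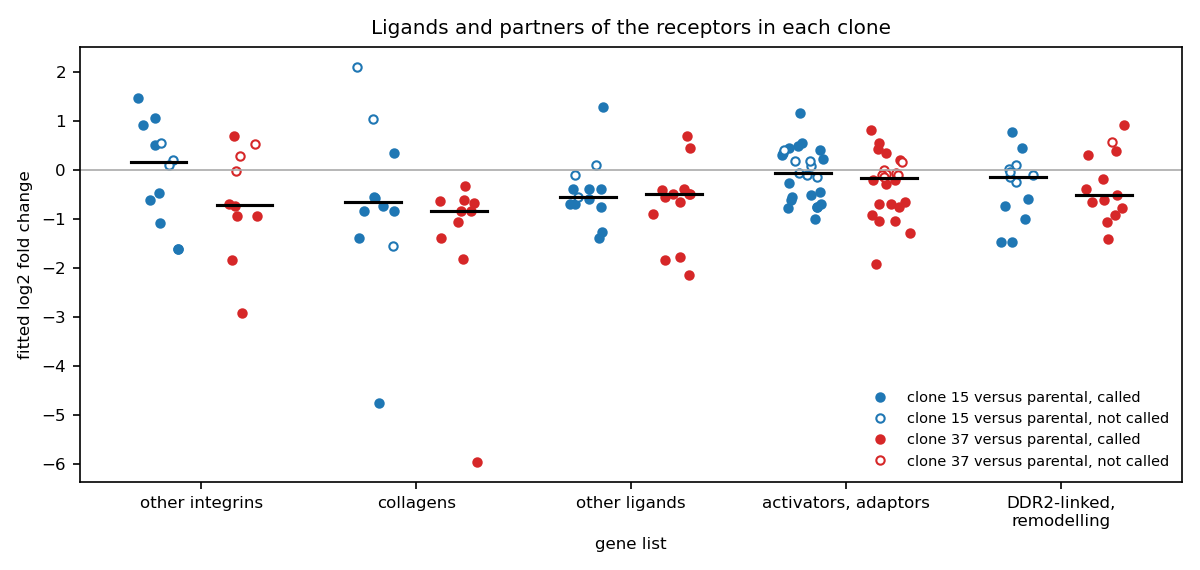
Fitted log2 fold changes of the tested genes of 5 lists in clone 15 (blue) and clone 37 (red) against parental cells, filled where called; black lines are medians, and COL1A2, with no parental count, is in its list's median but not drawn. The collagen medians are -0.66 and -0.84, those of the adaptors -0.06 and -0.18.

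The summed fibroblast or mesenchymal markers were higher in clone 15 and lower in clone 37, at 39.1 to 42.1 CPM in parental cells, 59.2 to 176 CPM in clone 15 and 21.5 to 22.3 CPM in clone 37, while the medians of the collagens, other ligands, adaptors and DDR2-linked genes were below 0 in both clones. COL1A1 and COL1A2 are among the markers and the collagens. The other 6 markers alone summed to 5.64 to 6.58 CPM in parental cells, to 5.30, 4.87 and 11.4 CPM in clone 15 replicates 1 to 3 and to 1.55 to 3.08 CPM in clone 37, so that clone 15 exceeded parental cells in replicate 3 only. The part of such RNA in the collagen and fibronectin values of clone 15 replicate 3 was not tested. Without that library 8 other integrin, 11 collagen, 11 other ligand, 18 adaptor and 6 DDR2-linked genes were called in clone 15, against 9, 8, 10, 18 and 7 with it, and the count of the 10 receptor genes was 4 both ways. Of all genes tested, 8162 of 17658 were called without that library and 9092 of 17703 with it.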

How the data were processed

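The authors deposited raw counts per gene, 1 file per library, in the layout of STAR's gene counts. STAR 2.7.10a, FastQC 0.11.9 and the build hg38 are named in the submitters' processing notes, and the annotation release is not given in the sources used here. Per the labels' protocols, libraries were directional. The column of the transcript strand was used (column 4), which held 92.6% to 94.0% of stranded counts; the 4 summary entries ahead of the genes stayed out of totals. Counts of reads that map to several places or genes are left out by such counting.

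CPM is the count per 1000000 gene counts of a library. Positions and exon lengths came from GENCODE 29. Each comparison was fitted on its 6 libraries with edgeR 4.0.16 (filterByExpr, TMM, robust glmQLFit and glmQLFTest) in R 4.3.3, and genes were called at a Benjamini-Hochberg adjusted p under 0.05 over all genes tested. Standard errors are the log2 fold change over the square root of F, and intervals are 1.96 standard errors. The procedure was tested on simulated data. Replicates within a group differed by more than counting noise (chi-square per degree of freedom 1.86 to 12.8), so none was counted as a copy.

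The receptor genes, the lists and the tests were chosen with earlier results of these data known. Named genes are the receptors, the 3 called genes with the largest change in each clone from each other list (mean of at least 1 CPM), the 5 genes most like DDR2 (mean of at least 5 CPM) and the neighbours of DDR2; COL1A1, COL1A2, COL2A1, COL6A3, ITGAE, ITGA7, ITGB3 and NEFM were added after their values were seen. Alternatives were RLE scaling, DESeq2 1.42.0, other filters on low counts, unstranded counts, a single model of the 9 libraries, blocking on replicate number, thinning to the smallest total and leaving out each replicate.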

Additional observations from a re-analysis of the deposited data

Results flagged for a closer look

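The receptor genes ITGA2, ITGA3, ITGA5 and ITGB5 changed differently from parental cells in the 2 clones, by the test of clone 37 against clone 15, which is the test of that difference. The differences on the log2 scale were 0.25 for ITGA2, -0.23 for ITGA3, -0.42 for ITGA5 and -0.39 for ITGB5, with adjusted p of 0.0113, 0.0456, 2.81e-06 and 8.83e-05 in edgeR's quasi-likelihood test. ITGA3 lost its call in 10 of 14 alternative settings, DESeq2 and the replicate block among them, and ITGA2 in 2, while ITGA5 and ITGB5 kept theirs in all 14. ITGA5 and ITGB5 were lower in each of the 3 clone 37 libraries than in each clone 15 library, and so was ITGA3, whereas ITGA2 was higher in each. The read lengths of the clones differed (100 against 75 bp), and the part of read length in these differences was not tested.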

How the results depend on the processing

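Of 1626 recomputed values, 1549 stayed within the bounds set: a tested change kept its direction and its side of the threshold, a count stayed within 1.5 times, or an untested value moved by less than the spread between replicates. DDR2 changed by -1.10 to -0.96 in clone 15, by -5.03 to -4.93 in clone 37 and by -4.002 to -3.897 between the clones over every alternative run. The calls of ITGA3, ITGA6 and ITGAV in clone 15 and of ITGA5 and ITGB5 between the clones held in each of their 14 alternatives. Receptor genes called when a replicate was left out numbered 4 to 5 in clone 15 and 2 to 4 between the clones, and between the clones 2 were called after thinning, where fewer counts were tested, and 2 without clone 37 replicate 3. Under the other settings they numbered 4 to 6 and 2 to 5. Over all genes, 7997 to 9068, 9069 to 10454 and 7487 to 10032 were called when a replicate was left out. Values of tested receptor genes that turned sign were not called in either setting: in clone 15, ITGA5 after thinning (0.036), and with a replicate left out DDR1 (-0.13 to 0.053), ITGB1 (-0.14 to 0.0097) and ITGB5 (-0.030 to 0.12); between the clones, ITGA1 after thinning (-0.013) and with a replicate left out (-0.018 to 0.15). ITGA11 in clone 15 ranged from -0.16 (without clone 15 replicate 3) to 0.39. In clone 37 against parental cells, given without a test, ITGB1 (-0.087 to 0.065) and ITGA2 (-0.012 to 0.080) also took both signs. The cause was not tested.

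Same-numbered replicates did not deviate together (correlations -0.15 to 0.02 over 9 pairs, of which 1 was the best match of its number), so the numbers were not taken to pair samples. With the replicate number as a block, 4 receptor genes were called in clone 15 and 4 between the clones, and 8708, 10491 and 8375 genes in all were called in clone 15, between the clones and in clone 37. Between the clones the block ended the call of ITGA3 (adjusted p = 0.0502) and brought in ITGA6 (adjusted p = 0.0445). With 10334090 to 38093340 gene counts per library, genes under about 1 CPM rest on few counts.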

Other observations

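The neighbourhood of the other receptor genes was compared in the same way as that of DDR2, a choice made after the values of the receptors were seen. Around ITGAV, at -0.47 in clone 15 and -0.55 in clone 37 on the log2 scale, the 10 expressed neighbours had medians of -0.999 and -0.445. Around ITGA6, at -0.26 and -0.43, the medians were -0.62 and -0.51, and none of the 10 neighbours was above -0.44 in clone 15. ITGA6 and ITGAV both lie on the long arm of chromosome 2. Around ITGB5, at 0.06 and -0.33, the medians were 0.06 and -0.42, and around ITGB1, at -0.07 and -0.00, they were 0.00 and 0.24. Around ITGA3, which was higher in both clones at 0.59 and 0.36, the medians were 0.16 and -0.15, and around ITGA5, at -0.05 and -0.48, they were 0.25 and -0.10. Around DDR1, at -0.04 and -0.13, the medians were 0.07 and -0.04. ITGA1, at -0.25 and -0.17, lay below the medians of its neighbours, -0.03 and 0.29, and so did ITGA2, at -0.21 and 0.04 against -0.03 and 0.24, although these genes are close to each other and share neighbours. Between the clones, ITGA5 was at -0.42 and its neighbours had a median of -0.44. The same values were -0.39 and -0.38 for ITGB5, -0.23 and -0.26 for ITGA3, and 0.25 and 0.19 for ITGA2. They were -0.17 and 0.21 for ITGA6 and -0.08 and 0.26 for ITGAV. For ITGA1, ITGB1 and DDR1 they were 0.08 and 0.29, 0.07 and 0.18, and -0.09 and -0.15. These are values of 10 genes each, or 9 around ITGA5 between the clones, with no test.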
